A study of Mus musculus with 21 samples.

Results

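GSKJ4 treatment of mouse motor neuron cultures at 2 stages was compared as an interaction, the effect at day 6 (D6) minus the effect at 8 hours after day 4 (D4H8). The comparison used every library of the 4 groups D4H8, D4H8_GSKJ4, D6 and D6_GSKJ4, which are 12 of the 21 libraries of the series, 3 biological replicates a group. All cultures were WT, grown from C57BL/6 embryonic stem cells kept on fibroblast feeders, and were taken through embryoid bodies with retinoic acid at 1 µM and SAG, an agonist of Sonic hedgehog signalling, at 0.5 µM from D2. The Notch inhibitor DAPT (5 µM) was added at D4 in the differentiation medium and at D5 in ADFNK medium. By the study's methods, ADFNK medium holds no retinoic acid or SAG. Treated cultures received GSKJ4 for 1 day before collection, from D3H8 to D4H8 or from D5 to D6. The GSKJ4 concentration in these cultures and the treatment of the control cultures were not given in the sources used here. The window ending at D4H8 began before DAPT was added and lay in the medium with retinoic acid and SAG. The window ending at D6 lay after DAPT was first added, in the medium without retinoic acid and SAG. Stage, medium, retinoic acid, SAG and DAPT therefore cannot be told apart. No sorting of the cultures was described, so each library holds all their cells. The study describes the libraries of each stage as independent biological experiments. Whether same-numbered treated and untreated libraries came from one differentiation was not given in the sources used here.

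GSKJ4 is a cell-permeable precursor of an inhibitor of the histone demethylases Kdm6a and Kdm6b. These enzymes need iron, oxygen and 2-oxoglutarate, and remove methyl groups from lysine 27 of histone H3, a mark that Polycomb complex PRC2 writes on silent developmental genes. In the ventral spinal cord, progenitors that carry Olig2 turn on the proneural factor Neurog2 and the Notch ligand Dll1, leave the cell cycle and become motor neurons that carry Isl1, Mnx1 and cholinergic genes.

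The labelled stages were checked on FPKM (fragments scaled to exon length and to the counted reads of the library) in the untreated libraries. Of the progenitor genes, *Olig2* averaged 98.2 FPKM at D4H8 and 1.24 at D6, and *Neurog2* averaged 44.4 and 1.91. *Olig1*, *Sox1* and *Sox2* also averaged less at D6, whereas *Nkx6-1* went the other way, from 71.1 to 143 FPKM. Of the motor neuron genes, *Isl1* averaged 28.5 FPKM at D4H8 and 125 at D6, and the acetylcholine vesicle transporter gene *Slc18a3* averaged 6.36 and 189. *Isl1* at D4H8 and *Sox2* at D6 (17.9 FPKM) show that neither stage was pure. Libraries held 14982115 to 34383842 counts, and the deepest was D4H8 replicate 1. D4H8_GSKJ4 replicate 2 stood apart, with 5.325% of its counts on mitochondrial genes against 1.559% to 2.273% in the other 11 libraries. Counts over gene lists at D4H8 are therefore also given without each of these 2 libraries where they move by over 1.5 times, and for named genes with a called difference the number of refits that kept the call is given. Summed CPM (counts scaled to library size) of 14 pluripotent cell markers was 304 to 617 in untreated and 726 to 912 in treated D4H8, and 153 to 356 and 145 to 357 at D6. The sum over 18 fibroblast markers was 151 to 229 and 267 to 404 at D4H8, and 174 to 376 and 144 to 345 at D6. The sum over 14 endothelial and blood markers was 16.4 to 31 and 35.2 to 44.2 CPM at D4H8, and 15.3 to 28.5 and 13.2 to 25.6 CPM at D6, with *Hbb-bs* and *Ptprc* at no more than 3 counts in every library. Over 14 endoderm and mesoderm markers it was 209 to 342 and 343 to 685 CPM at D4H8, and 75 to 184 and 68.5 to 225 CPM at D6. Each of these 4 sums was thus higher in every treated than in every untreated D4H8 library, and overlapped at D6. No member of the 4 lists was called at D4H8 (median log2 effects 0.69, 0.84, 0.50 and 0.30), and their part in the results below was not tested. The sums of the glial, floor plate and neural crest markers overlapped at both stages.

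The response to GSKJ4 was smaller at D6 than at D4H8, over all genes and in most gene classes. A gene was called where edgeR's quasi-likelihood test gave a Benjamini-Hochberg adjusted p under 0.05 over the 17594 genes tested, in 1 fit of the 12 libraries. At D4H8, 1024 genes were raised (5.82%) and 988 lowered (5.62%), whereas at D6 the same fit called 0 genes (0%), with 149 genes at an unadjusted p under 0.05 (0.847%). DESeq2 also called 0. With no filter on low counts 2 genes were called at D6, and limma voom called 1. A fit of the 6 D6 libraries alone, paired by replicate number and added after seeing the data, called 257 of 16301 genes (1.58%). With the same pairs in the fit of 12 libraries, 0 genes were called at D6. The median size of the log2 effect over all tested genes was 0.396 at D4H8 and 0.0955 at D6. The median standard errors were 0.274 and 0.271. They come from a spread that the stages share in the fit, so they do not compare the precision of the stages. The test of the difference itself called 73 genes (0.415%). Of these, 59 had a positive difference (0.335%), all lowered at D4H8, and 14 had a negative difference (0.0796%), all raised at D4H8. Every one of the 73 had an effect of smaller size at D6. At an unadjusted p under 0.05 the difference was positive for 1347 genes (7.66%) and negative for 1491 (8.47%). Leaving out D4H8 replicate 1 left 27 of the 73 calls and D4H8_GSKJ4 replicate 2 left 66 of them among 166, and without both libraries 51 genes were called, 39 of them among the 73. At D4H8 itself, 337 of the 2012 calls were left without D4H8 replicate 1. The counts therefore moved over 1.5 times with single libraries, and 22 of the 73 genes were called in each of the 12 refits that left out 1 library.

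**Figure D1:**
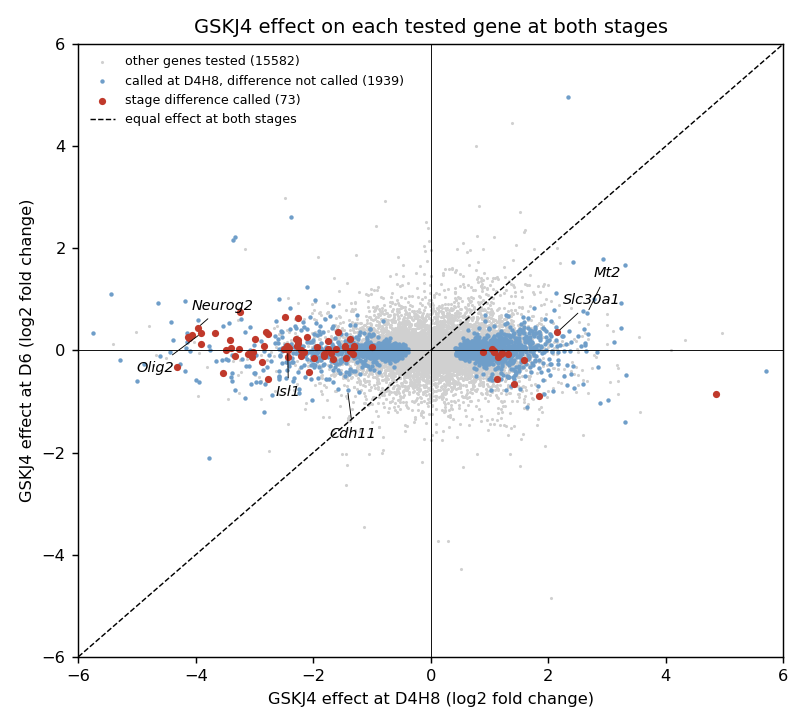
Log2 GSKJ4 effect at D4H8 (x axis) against the log2 effect at D6 (y axis) for each tested gene, with the 73 genes whose effects differ between stages in red, the other genes called at D4H8 in blue, the rest in grey and a dashed line of equal effect. The cloud is wide along the D4H8 axis and narrow along the D6 axis: the median size of the effect was 0.396 at D4H8 and 0.0955 at D6.

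The 2012 genes called at D4H8 had a median effect size of 0.992 there and 0.0816 at D6. Of these, 51.84% kept their sign at D6, against 50.8% of all tested genes. For 1014 of them (50.4%, against 39.7% of all tested genes) the 95% interval at D6 lay within 1.5-fold either way, so that a D6 effect beyond this size lay outside the interval. Some of these were also among the 73 above. Another 8 genes had the same sign and an unadjusted p under 0.05 at D6, 13 had the opposite sign and such a p, and 941 fell in none of these sets, their D6 interval being too wide to place them. At an unadjusted p under 0.05 for the difference, 1835 of the 2012 (91.2%) had a smaller or opposite effect at D6. The D4H8 effect is part of the difference, so these counts describe the called genes and carry no test.

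The level of expression set how far a loss could be read. Genes were taken as expressed at a stage where their mean over its 6 libraries was at least 1 FPKM. Of the 73 genes, 57 were expressed at both stages, 4 only at D4H8, 6 only at D6 and 6 at neither, and 20 of the 57 also kept an untreated level within 2-fold between the stages. Among the genes called at D4H8, 1559 were expressed at both stages and 64.1% of them were held within 1.5-fold at D6. In the 1045 of these with a steady level the share was 71.2%. Their median effect size was 0.806 at D4H8, where they were chosen, and 0.0624 at D6. Their median standard error was 0.189 at each stage, from the spread that the stages share in the fit. By contrast, of the 128 called genes expressed only at D4H8, 1.56% could be held within this bound at D6. For that class, loss of the response and loss of expression cannot be told apart.

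Genes were then sorted by how their untreated level changed from D4H8 to D6, among the 11912 expressed at both stages, of which 8.56% had a positive and 8.64% a negative difference at an unadjusted p under 0.05. Of the 308 genes whose level fell over 4-fold, 12.3% were lowered and 0.974% raised by GSKJ4 at D4H8. Of the 8591 within 2-fold, 5.62% were lowered and 6.54% raised, and of the 614 that rose over 4-fold, 10.3% were lowered and 8.80% raised. Without D4H8 replicate 1 these shares were 6.17% and 0.325%, 0.873% and 0.873%, and 2.44% and 1.63%, and without D4H8_GSKJ4 replicate 2 they were 8.77% and 0.649%, 5.55% and 6.77%, and 6.51% and 9.77%. The untreated D4H8 libraries enter both the level change and the effect, which can tie the 2 together. With the level change taken from libraries outside the comparison, untreated D5 against D4, the pattern was different. D4 to D5 is also another interval than D4H8 to D6, so this sorting cannot show how far the shared libraries made the first pattern. Of the 460 genes that rose over 4-fold from D4 to D5, 23.0% were lowered and 3.26% raised by GSKJ4 at D4H8, and of the 662 that fell 2- to 4-fold, 5.59% were lowered and 5.29% raised. This sorting was added after the values were seen, and the bin of genes that fell over 4-fold held only 11. In every bin the called genes had a median effect size at D6 of at most 0.176, against at least 0.806 at D4H8. These genes were chosen by their D4H8 effect, so the smaller sizes at D6 may follow from the choice and carry no test.

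**Figure D2:**
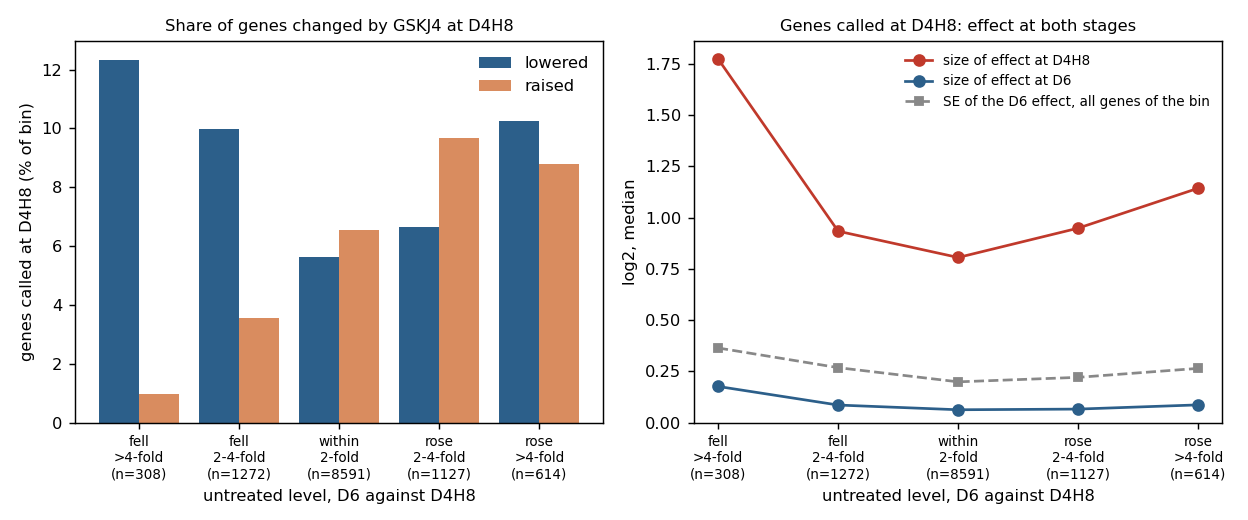
Genes expressed at both stages, grouped by the change in untreated level from D4H8 to D6, with the share of each group raised and lowered by GSKJ4 at D4H8 (left, bars) and the median log2 effect size of the called genes at each stage beside the median standard error at D6 over all genes of the group (right). Called genes had smaller median effects at D6 in each of the 5 level groups, from 0.176 in genes that fell over 4-fold to 0.0624 in genes within 2-fold. They were chosen by their D4H8 effect, so the smaller sizes may follow from the choice.

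Counts of list members called at D4H8, here and below, stand against 5.62% lowered and 5.82% raised of all tested genes. Of the gene classes, the ventral progenitor factors had the lowest median effect at D4H8. Of 22 ventral progenitor factors tested, 15 were lowered at D4H8 and none was called at D6, with a median log2 effect of -2.09 at D4H8 and -0.03 at D6, against 0.02 and -0.01 over all genes. The difference was called for 4 of them, *Olig2*, *Olig1*, *Nkx2-9* and *Sp8*. Of 17 proneural factors, 7 were lowered at D4H8 (4 without D4H8 replicate 1, 5 without D4H8_GSKJ4 replicate 2), with medians of -0.89 and 0.01, and the difference was called for *Neurog2*. *Neurog2* had 108, 88.3 and 92.8 CPM in the 3 untreated and 6.84, 3.49 and 8.06 CPM in the 3 treated D4H8 libraries, and 4.4, 5.02 and 4.01 CPM and 4.11, 7.71 and 6.47 CPM at D6. All treated D4H8 libraries lay below all untreated ones, close to the D6 libraries, where treated and untreated overlapped. Treated and untreated libraries were apart in 32.3% of all tested genes at D4H8 and in 5.27% at D6. The log2 effect was -3.97 at D4H8 and 0.45 at D6, a difference of 4.41 ± 0.41 (SE; edgeR quasi-likelihood, Benjamini-Hochberg adjusted p = 0.00158), called in each of the 12 refits that left out 1 library. In whole cultures, fewer cells of a type and less RNA per cell cannot be told apart.

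*Olig2*, the bHLH factor that defines motor neuron progenitors, had 313, 193 and 221 CPM in untreated and 18.9, 4.81 and 24.5 CPM in treated D4H8. At D6 it had 1.42, 4.37 and 3.95 CPM without and 2.09, 4.6 and 5.57 CPM with GSKJ4. The effect thus went from -3.91 to 0.33, with the D6 interval from -0.90 to 1.56 (difference 4.24 ± 0.76, edgeR adjusted p = 0.033, called in 4 of 12 refits). The untreated level of *Olig2* at D6 was already below its treated level at D4H8 in every library. Its neighbour *Olig1* and the homeodomain gene *Nkx2-9* were likewise almost off at D6, at 1.09 and 1.29 CPM, and had differences of 4.36 and 3.14, called in 9 and 2 of 12 refits. *Sp8*, a zinc-finger factor of ventral progenitors, went from 43.9 ± 5.85 to 9.18 ± 0.518 CPM at D4H8 (mean ± SD, n = 3), and its difference was 2.89 (edgeR adjusted p = 0.00506, called in 12 of 12 refits). By the limit of 1 FPKM *Sp8* was expressed at D4H8 only, so loss of its response and of its expression cannot be told apart. The number of ventral progenitor factors lowered at D4H8 fell from 15 to 6 without D4H8 replicate 1, and without D4H8_GSKJ4 replicate 2 it was 11. The called differences in the list were then 1 and 4.

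The Notch genes followed the progenitor factors. Of 26 tested, 13 were lowered and 1 raised at D4H8, and the median effect was -0.92 at D4H8 and -0.05 at D6. The difference was called for the ligand *Dll1*, for *Mfng*, whose product adds sugars to Notch receptors, and for *Hey2*, a repressor induced by Notch. *Dll1* had 185, 115 and 136 CPM in untreated and 27.4, 5.36 and 10.3 CPM in treated D4H8, a log2 effect of -3.34. At D6 the untreated libraries still held 48.7, 57.7 and 38 CPM and the treated ones 48.9, 50 and 35.8 CPM. The groups overlapped at D6 (log2 effect -0.10, 95% interval -1.01 to 0.80), so *Dll1* was measurable at both stages and separated by treatment at D4H8 alone (difference 3.23, edgeR adjusted p = 0.0415, called in 2 of 12 refits). *Mfng* and *Hey2* had differences of 3.08 and 3.09, called in 4 and 12 of 12 refits. By the limit of 1 FPKM *Hey2* was expressed at neither stage, so its difference rests on low levels. DAPT, which blocks the cleavage of Notch, was first added at D4, inside the window ending at D4H8, and again at D5, where the D6 window starts. Its part in the difference was not tested. The Notch genes lowered at D4H8 were 7 without D4H8 replicate 1, and without D4H8_GSKJ4 replicate 2 they were 9, with 1 and 4 called differences.

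**Figure D3:**
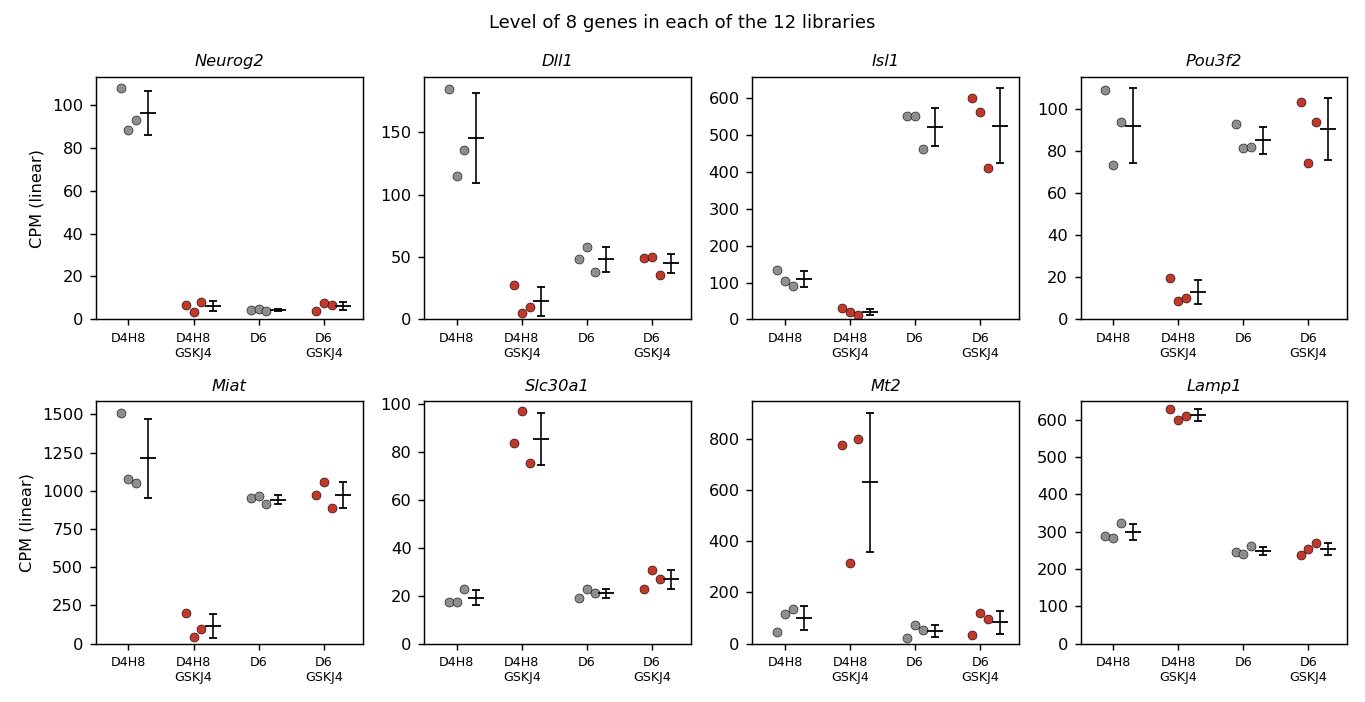
CPM (linear axis from 0) of 8 genes in each of the 12 libraries, untreated in grey and treated in red, with the mean and SD (n = 3) beside each group. *Isl1* and *Pou3f2* separate by treatment at D4H8 and overlap at D6, while *Slc30a1* is higher in every treated library at both stages.

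A second set of genes had called differences while their untreated level stayed high or rose, so that they were still measured well at D6. *Isl1*, the LIM homeodomain gene of motor neurons, had 135, 104 and 91.7 CPM in untreated and 29.6, 19.5 and 11.9 CPM in treated D4H8. At D6 it had 552, 551 and 462 CPM without and 601, 563 and 410 CPM with the inhibitor. Groups were apart at D4H8 and overlapped at D6. Its effect went from -2.44 to 0.01 (95% interval -0.57 to 0.59), a difference of 2.44 with an interval of 1.61 to 3.28 (edgeR adjusted p = 0.0158, called in 7 of 12 refits). *Lhx3*, its partner in motor neuron specification, had an effect of -3.10 at D4H8 and -0.30 at D6, and its difference of 2.80 was not called (adjusted p = 0.0626 by edgeR). Of 23 motor neuron identity factors, 5 were lowered and 1 raised at D4H8, and *Isl1* was the only one with a called difference. Without D4H8 replicate 1 the list had 3 lowered and no called difference, and without D4H8_GSKJ4 replicate 2 it had 3 lowered and 2 called differences.

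The POU factors *Pou3f2* and *Pou3f3*, which act in neural progenitors and in neurons, were also called. *Pou3f2* had 109, 73.7 and 93.8 CPM in untreated and 19.6, 8.97 and 10.2 CPM in treated D4H8. The D6 libraries held 92.8, 81.4 and 82 CPM without and 104, 74.6 and 94.1 CPM with GSKJ4. Its untreated level was within 2-fold between the stages, treated D4H8 lay apart, and treated D6 did not. The untreated level of *Pou3f3* was 33.8 CPM at D4H8 and 89.8 CPM at D6. Differences were 2.92 ± 0.37 for *Pou3f2* (edgeR adjusted p = 0.00477) and 3.00 ± 0.41 for *Pou3f3* (0.00646), called in each of the 12 refits. *Prdm8*, a transcriptional repressor of neural development, went from 20.9 ± 7.82 to 1.86 ± 1.03 CPM at D4H8 and stood at 26.4 ± 4.08 and 26.4 ± 7.26 CPM at D6 (mean ± SD, n = 3). The long noncoding RNA *Miat* went from 1213 ± 257 to 115 ± 79.7 CPM at D4H8 and stood at 943 ± 27.5 and 973 ± 83.8 CPM at D6. Their differences were 3.48 and 3.44, called in 10 and 8 of 12 refits.

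Transmitter and cytoskeletal genes gave fewer calls. Of 19 transmitter genes 3 were lowered at D4H8 (also 3 with either of the 2 libraries left out, with 1 called difference each time), and the difference was called for *Th* and *Ddc*, which encode consecutive enzymes of catecholamine synthesis. *Th* went from 5.05 ± 1.91 to 1.05 ± 0.605 CPM at D4H8 and was 77.5 ± 7.43 and 89.4 ± 13.4 CPM at D6, a difference of 2.46 called in 2 of 12 refits. *Ddc* had a difference of 2.53, called in each of them. *Chat*, which makes acetylcholine and overlaps an expressed antisense gene, had effects of -1.80 at D4H8 and -0.01 at D6, and its difference of 1.78 was not called (edgeR adjusted p = 0.0861). Of 33 cytoskeletal genes 6 were lowered and 1 raised at D4H8 (1 lowered without D4H8 replicate 1, 4 without D4H8_GSKJ4 replicate 2), and the beta-tubulin gene *Tubb2b*, which shares 36.9% of its 50-base words with other genes, had a called difference of 1.37, kept in 1 of 12 refits. Among 33 Wnt genes, 5 were lowered and 3 raised at D4H8 (15.2% and 9.09%, against 5.62% and 5.82% of all genes), which became 2 and 0 without D4H8 replicate 1 and 4 and 3 without D4H8_GSKJ4 replicate 2. *Sfrp1*, a secreted Wnt antagonist, had the one called difference (2.10, edgeR adjusted p = 0.00477, called in all 12 refits).

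**Figure D4:**
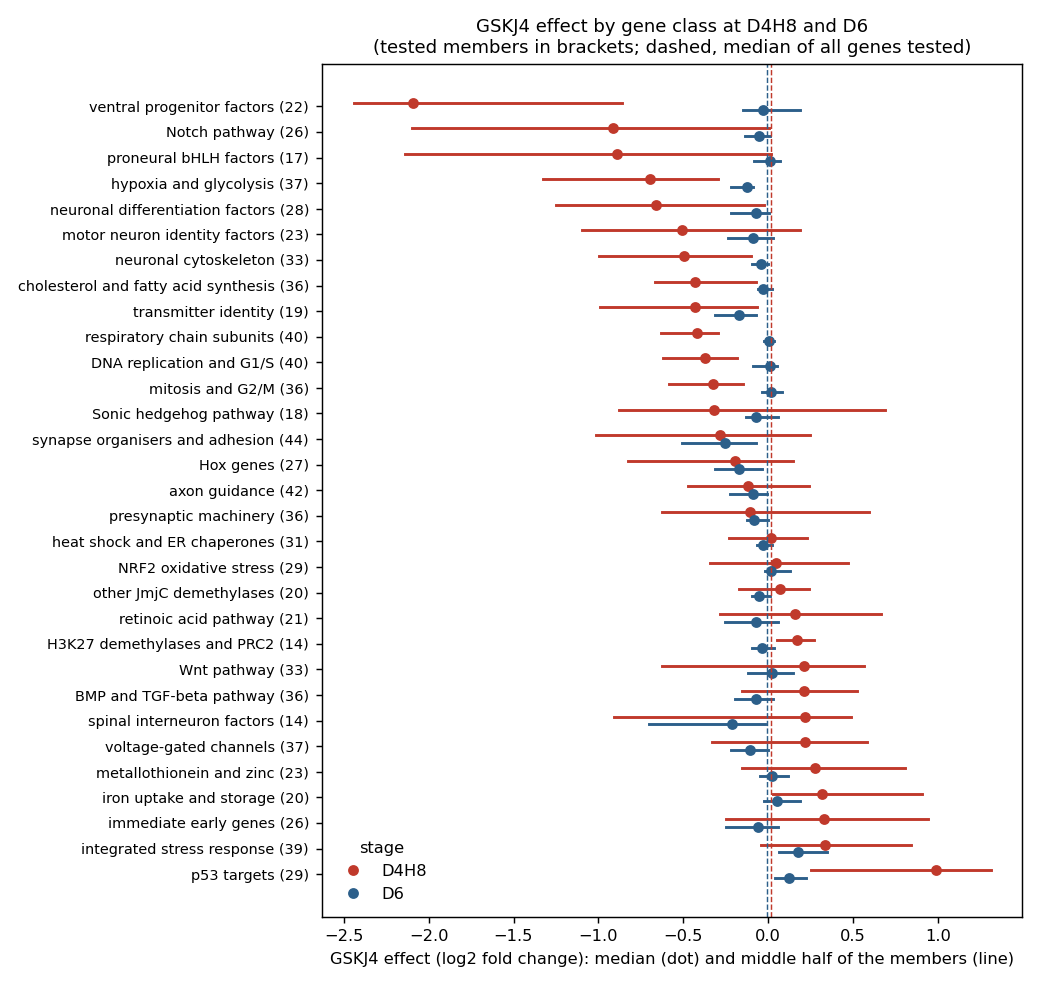
Median log2 GSKJ4 effect of each gene list at D4H8 and at D6, as dots with a line from the lower to the upper quartile of the members, the number of tested members in brackets and dashed lines at the medians of all tested genes. Ventral progenitor factors lie at -2.09 at D4H8 and -0.03 at D6, and p53 targets at 0.99 and 0.12.

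Among the other genes named by size of difference, *Grrp1* was expressed at both stages (3.21), *Efcc1* and the noncoding RNA *Sox2ot* only at D4H8 (4.00 and 3.18), and *Tbc1d30* only at D6 (3.05). *Efcc1* and *Sox2ot* were called in each of the 12 refits, *Grrp1* in 4 and *Tbc1d30* in 5. *Tbc1d30* had 4.8 CPM in untreated D4H8 and 27.8 CPM in untreated D6, and its effects were -3.12 and -0.07.

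Genes of glycolysis and the hypoxia response had a smaller fall at D6. Of 37 tested, 21 were lowered at D4H8 and none raised, with a median effect of -0.69 at D4H8 and -0.13 at D6. The sign was the same at both stages for 86.5% of them, against 50.8% of all genes, and 10 of the 21 were held within 1.5-fold at D6. *Ldha*, the muscle-type lactate dehydrogenase gene, had 760, 1035 and 1131 CPM in untreated and 119, 114 and 273 CPM in treated D4H8. The D6 libraries held 595, 816 and 726 CPM without and 458, 513 and 822 CPM with GSKJ4. Its effect was -2.53 at D4H8 and -0.25 at D6 (95% interval -0.95 to 0.45), and the difference of 2.28 missed the threshold (edgeR adjusted p = 0.0524). *Bnip3*, a mitophagy receptor gene, had effects of -2.05 and -0.28, and *Pgk1*, a glycolytic kinase gene that shares 53.9% of its 50-base words with other genes, -1.46 and -0.11. The one called difference in the list was *Ankrd37* (2.66, adjusted p = 0.0443 by edgeR, kept in 2 of 12 refits and in neither of those below), which overlaps an expressed antisense gene. Members lowered at D4H8 were 13 without D4H8 replicate 1 and 17 without D4H8_GSKJ4 replicate 2.

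The promoter of *Ldha* is shown because it holds the core of the hypoxia response element, ACGTG. The sequence is the 250 bases before the start of the gene in RefSeq on GRCm38.p6, with the matches on either strand in capitals (CACGTG reads as a match on both strands, and the count of 5 includes each).
Ldha promoter, chr7:46845554-46845803, plus strand: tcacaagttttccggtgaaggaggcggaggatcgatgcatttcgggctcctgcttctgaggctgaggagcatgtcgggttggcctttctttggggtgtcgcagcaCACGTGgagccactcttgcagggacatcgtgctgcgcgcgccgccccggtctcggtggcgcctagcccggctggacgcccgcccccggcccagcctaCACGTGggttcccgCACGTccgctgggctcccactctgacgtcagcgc
A match was found in 23 of the 49 promoter windows of the list (46.9%) and in 16.6% of all 32851 windows. A second annotated start of *Ldha* had 0 matches. These are matches of letters only.

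No difference was called in 4 lists of synthesis and growth genes. Of 36 genes of cholesterol and fatty acid synthesis 7 were lowered at D4H8 and 6 of these were held within 1.5-fold at D6, with medians of -0.43 and -0.03. *Acat2*, an enzyme gene of the pathway with 39.1% of its 50-base words shared with other genes, went from 172 ± 24.9 to 82.8 ± 1.85 CPM at D4H8 and was 281 ± 35.8 and 274 ± 5.8 CPM at D6, and its difference of 1.02 was not called (edgeR adjusted p = 0.0519). Of 40 genes of DNA replication and G1/S 7 were lowered at D4H8 (medians -0.37 and 0.01), and of 36 mitotic genes edgeR called 0, with 0 at an unadjusted p under 0.05 for the difference (medians -0.33 and 0.02). Without D4H8 replicate 1, edgeR called 0 of the replication genes and 2 of the cholesterol genes at D4H8, and without D4H8_GSKJ4 replicate 2 it called 3 and 6. Of 40 respiratory chain genes 3 were lowered (5.62% of all genes were, medians -0.42 and 0.00), and with either of these libraries left out edgeR called 0 of them at D4H8. The difference was above 0 for 40 of 40 respiratory genes and 37 of 40 replication genes, while its median over all tested genes was -0.0225. Genes of a class can move together within a library, so these counts of signs carry no test. Of 31 heat shock and ER chaperone genes edgeR called 0 at D4H8, and 0 had an unadjusted p under 0.05 for the difference.

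The lists with at least 5 genes raised and fewer lowered at D4H8 were the zinc, p53, integrated stress response and voltage-gated channel lists. Of 37 channel genes 5 were raised (13.5%, against 5.82% of all genes) and 1 lowered, with medians of 0.22 at D4H8 and -0.11 at D6, and edgeR called no difference (7 negative and 1 positive at an unadjusted p under 0.05). The channel genes raised at D4H8 were 0 without D4H8 replicate 1 and 3 without D4H8_GSKJ4 replicate 2. *Slc30a1*, the zinc exporter of the plasma membrane, was the only one of the 14 negative differences that was called in each of the 12 refits. It had 17.2, 17.6 and 22.9 CPM in untreated and 83.9, 97.1 and 75.6 CPM in treated D4H8. The D6 libraries gave 19, 22.7 and 21.2 CPM without and 23, 30.6 and 27 CPM with GSKJ4. Every treated library lay above every untreated one at both stages. The effect was 2.15 at D4H8 and 0.36 at D6, a difference of -1.80 ± 0.24 (edgeR adjusted p = 0.0056). In a fit of the 6 D6 libraries alone with same-numbered libraries paired (the paired fit), the D6 effect of 0.37 was itself called (adjusted p = 0.0425, edgeR). It was not called in the fit of 12 libraries, with or without the pairs (adjusted p = 1 in both, edgeR). The same holds for every D6 call of the paired fit given below, since edgeR called 0 genes at D6 in the fit of 12 libraries with the pairs at D6, with 192 at an unadjusted p under 0.05.

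The metallothionein genes *Mt1* and *Mt2*, whose products bind zinc, were raised at D4H8 and, in the paired fit alone, at D6. *Mt2* had 46.4, 115 and 137 CPM in untreated and 774, 315 and 798 CPM in treated D4H8, and 22.9, 72 and 54.7 CPM and 32.7, 120 and 95.8 CPM at D6. At D6 the groups overlapped, and each treated library lay above the untreated library of its own number. The effect was 2.66 at D4H8 and 0.72 at D6 in the paired fit (edgeR adjusted p = 2.3e-06), and the difference of -1.93 (95% interval -3.58 to -0.28) was not called (adjusted p = 0.238, edgeR). *Mt1* gave 2.58, 0.75 and -1.82. Of 23 zinc genes 6 were raised and 2 lowered at D4H8. In the paired D6 fit 3 were raised (13.04%, against 0.294% of all genes in that fit). Without D4H8 replicate 1, 2 were raised at D4H8, and without D4H8_GSKJ4 replicate 2, 5 were. *Slc39a14*, which imports zinc, iron and manganese, went the other way, from 210 ± 47.1 to 68.5 ± 7.61 CPM at D4H8, with an effect of 0.02 at D6 (difference 1.64, edgeR adjusted p = 0.00989, called in 12 of 12 refits). *Slc30a4*, a zinc transporter of vesicles, had effects of 1.16 and 0.15, and its difference was not called.

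The promoters of *Slc30a1* and *Mt2* are shown because the transcription factor Mtf1 binds metal response elements. They were searched with the letters TGCNCNC (N is any base), a looser pattern than the core of these elements. Each is the 250 bases before the start of the gene in RefSeq on GRCm38.p6, with the matches on either strand in capitals.
Slc30a1 promoter, chr1:191906531-191906780, plus strand: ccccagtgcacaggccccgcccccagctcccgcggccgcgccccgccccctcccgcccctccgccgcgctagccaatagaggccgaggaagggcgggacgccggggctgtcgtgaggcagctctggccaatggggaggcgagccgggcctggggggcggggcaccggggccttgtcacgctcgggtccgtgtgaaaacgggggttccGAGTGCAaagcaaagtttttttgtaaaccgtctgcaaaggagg
Mt2 promoter, chr8:94172368-94172617, plus strand: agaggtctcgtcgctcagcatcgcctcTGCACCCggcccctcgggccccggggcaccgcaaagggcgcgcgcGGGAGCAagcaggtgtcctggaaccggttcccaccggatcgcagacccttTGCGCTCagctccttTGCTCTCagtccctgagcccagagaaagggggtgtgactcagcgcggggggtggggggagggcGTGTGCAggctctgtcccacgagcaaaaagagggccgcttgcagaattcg
The *Mt2* window held 5 matches and the *Slc30a1* window 1. The letters were present in 17 of 25 windows of the zinc list (68.0%) and in 44.4% of all 32851 windows, and at least 3 matches in 20.0% and 4.65%. The pattern is loose, so a match need not be a metal response element, and it does not show that the factor binds there.

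Of the other negative differences, *Lamp1*, a lysosomal membrane protein gene that overlaps an expressed antisense gene, had 288, 284 and 323 CPM in untreated and 629, 600 and 609 CPM in treated D4H8. The D6 levels were 246, 241 and 262 CPM without and 237, 255 and 271 CPM with it. Treated and untreated were apart at D4H8 and overlapped at D6, from a steady untreated level (effects 1.04 and 0.03, difference -1.01, edgeR adjusted p = 0.0259). *Akap12*, a scaffold for protein kinase A, gave 1.20 and -0.06. *Lrrc8d*, a subunit of volume-regulated anion channels, gave 1.08 and -0.04, and *Nacc2*, a BTB-domain repressor, 1.14 and -0.13. These 4 genes had untreated levels within 2-fold between stages. *Jazf1*, *Retreg1* and *Mapk4* had higher untreated levels at D6 than at D4H8, and their effects were 1.59, 1.32 and 1.21 at D4H8 and -0.19, -0.07 and -0.06 at D6. Each of these 7 was called in 3 or 4 of the 12 refits, so these calls rest on nearly all libraries at once.

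Of 29 p53 targets, 9 were raised and 1 lowered at D4H8, and the median effect was 0.99 at D4H8 and 0.12 at D6. The sign was the same at both stages for 75.9% of them, and no difference was called. *Ccng1*, which encodes cyclin G, had 230, 234 and 233 CPM in untreated and 605, 800 and 437 CPM in treated D4H8, and 180, 190 and 177 CPM and 232, 198 and 232 CPM at D6. Treated libraries lay above untreated ones at both stages. Its effects were 1.40 and 0.29 in the paired D6 fit (edgeR adjusted p = 0.00608), and the difference of -1.13 was not called (adjusted p = 0.0812, edgeR). *Mdm2*, the ubiquitin ligase gene that p53 induces, gave 1.01 and 0.17. The p53 targets raised at D4H8 were 3 without D4H8 replicate 1 and 11 without D4H8_GSKJ4 replicate 2.

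Genes of the integrated stress response, which Atf4 induces when cells are short of amino acids or carry unfolded proteins, gave some calls at both stages. Of 39 tested, 10 were raised and 1 lowered at D4H8, with a median effect of 0.33 at D4H8 and 0.18 at D6. At D6 the paired fit raised 7 (17.95%) and lowered none, against 0.294% raised and 1.28% lowered of all genes in that fit. *Slc7a3*, a transporter gene for cationic amino acids, had 39.9, 36.5 and 25.3 CPM in untreated and 59.6, 69.2 and 63.3 CPM in treated D4H8, and 7.72, 16.1 and 10.7 CPM and 20.3, 18.7 and 16.7 CPM at D6. Treated libraries lay above untreated ones at both stages. Its effects of 0.92 and 0.69 differed by -0.23 (95% interval -0.96 to 0.51), and the D6 effect was called in the paired fit (edgeR adjusted p = 0.0179). *Slc7a5*, which carries large neutral amino acids, gave 0.63 at D4H8 and 0.41 in the paired D6 fit (edgeR adjusted p = 0.00197), and its difference was -0.23 (-0.80 to 0.34). *Trib3*, a pseudokinase gene induced by Atf4, gave 1.83 and 0.36, and *Psat1*, of serine synthesis, had effects of opposite sign, -0.67 (not called) and 0.33 in the paired fit (edgeR adjusted p = 0.00105). Without D4H8 replicate 1, 1 member of the list was raised at D4H8, and without D4H8_GSKJ4 replicate 2, 10 were.

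The D6 calls came from the 6 D6 libraries alone, paired by replicate number, a fit that called 257 of 16301 genes (1.58%), 48 raised (0.294%) and 209 lowered (1.28%). With the same pairs in the fit of 12 libraries, where D4H8 shares the estimate of the spread, 0 of these were called at D6. All 257 had the same sign there, and 69 had an unadjusted p under 0.05. The common biological coefficient of variation was 0.2726 over the D4H8 libraries and 0.2165 over those of D6. Of the 209 lowered genes, 112 were expressed at both stages and 86 only at D6. At D4H8, 14 of the 209 were lowered and 16 raised. Of the 48 raised genes, 44 were expressed at both stages, and 13 were raised and 4 lowered at D4H8. In all, 27 genes were called in the same direction at both stages, 13 raised and 14 lowered, with median effect sizes of 1.32 at D4H8 and 0.407 at D6, and each of the 27 had the smaller effect at D6. Another 20 were called in opposite directions, 16 of them raised at D4H8 and lowered at D6, with median sizes of 1.02 and 0.438. The D4H8 calls came from the fit of 12 libraries and the D6 calls from the paired fit, which has smaller standard errors. For *Slc30a1* they were 0.176 and 0.0883, and for *Pag1* 0.221 and 0.077. A call at D4H8 thus needs a larger effect, so the smaller sizes at D6 in both sets may follow from the choice and carry no test. With the pairs at D6 in the fit of the 12 libraries, the difference between stages was called for 132 genes (0.75%), 86 positive (0.489%) and 46 negative (0.261%).

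**Figure D5:**
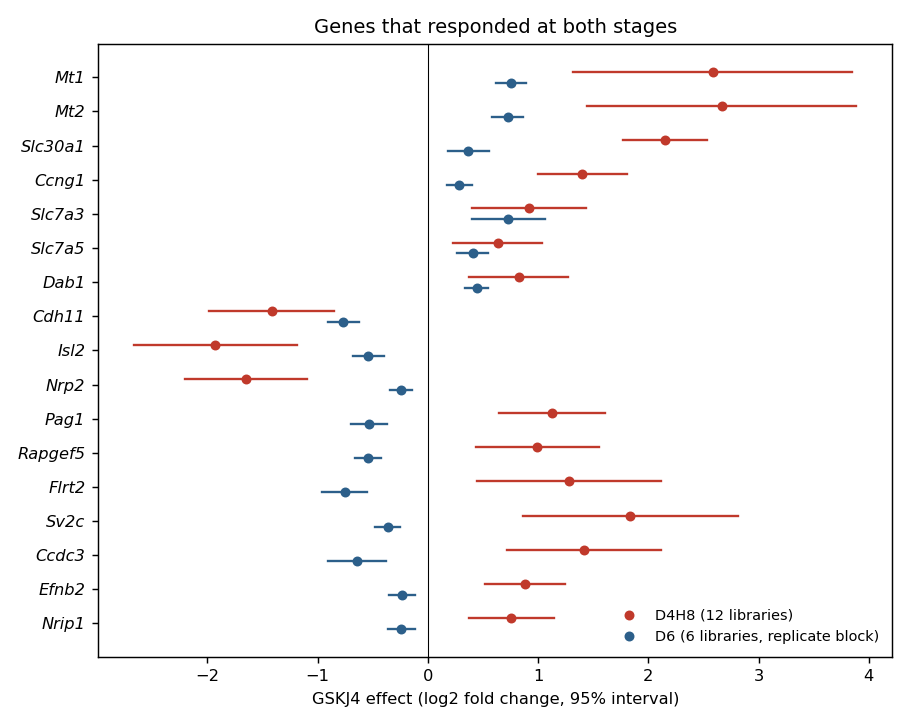
Log2 GSKJ4 effect (x axis; dots, with 95% intervals as lines) of 17 genes (rows) called at D4H8 in the fit of 12 libraries (red) and at D6 in the paired fit of 6 libraries (blue). From *Mt1* to *Nrp2* the effects have the same sign at both stages, and from *Pag1* to *Nrip1* they have opposite signs.

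*Cdh11*, a cadherin gene, was lowered at D4H8 and, in the paired fit, at D6. It had 16.9, 9.95 and 9.46 CPM in untreated and 3.29, 5.18 and 5.26 CPM in treated D4H8. At D6 it had 104, 88 and 85.4 CPM without and 62.9, 57.6 and 42.3 CPM with GSKJ4. Treated libraries lay below untreated ones at both stages, and the untreated level was higher at D6. The effects were -1.42 (edgeR adjusted p = 0.00752) and, paired, -0.77 (2.2e-06), and the difference of 0.65 (95% interval -0.12 to 1.42) was not called. *Isl2*, a LIM homeodomain gene of motor neurons, gave -1.93 at D4H8 and -0.54 in the paired D6 fit, with 5.29 ± 1.14 CPM in untreated D4H8 and 99 ± 9.41 CPM in untreated D6 (mean ± SD, n = 3). *Nrp2*, a semaphorin receptor gene, gave -1.65 and -0.24. Among genes raised at both stages, *Dab1*, the adaptor of reelin signalling, gave 0.82 and 0.44, with a difference of -0.39 that was not called (edgeR adjusted p = 0.515). The protocadherin gene *Pcdh18* had effects of -2.78 and -0.56, of the same sign, and its difference of 2.22 was called (edgeR adjusted p = 0.0178, in 7 of 12 refits).

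Genes called in opposite directions were mostly raised at D4H8 and lowered in the paired D6 fit. *Pag1*, an adaptor of Src family kinases, had 6.52, 6.16 and 7.49 CPM in untreated and 18.6, 15.8 and 9.61 CPM in treated D4H8. Levels at D6 were 41.6, 48.3 and 38.7 CPM without and 28.4, 29.9 and 29.3 CPM with GSKJ4. Treated libraries lay above untreated ones at D4H8 and below them at D6. The effects were 1.12 and, paired, -0.54 (edgeR adjusted p = 0.000447), and the difference of -1.68 was called (adjusted p = 0.0367 by edgeR, in 3 of 12 refits). *Ccdc3*, which codes for a secreted protein, was near the limit of detection in untreated D4H8 (0.24 CPM), and its difference of -2.06 was called in 2 of 12 refits. The difference was not called for *Rapgef5*, an exchange factor of Rap GTPases (0.99 and -0.54), *Flrt2*, an adhesion protein gene (1.28 and -0.76), *Sv2c*, a synaptic vesicle gene (1.84 and -0.36), or *Efnb2*, an ephrin gene (0.88 and -0.23). Untreated levels of *Rapgef5*, *Flrt2* and *Sv2c* at D6 were 93.2, 28.5 and 138 CPM, against 17, 4.75 and 0.416 CPM at D4H8.

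By class, the paired D6 fit lowered 13 of 44 synapse organiser and adhesion genes, 11 of 42 axon guidance genes, 6 of 24 Hox genes, 5 of 28 neuronal differentiation factors, 4 of 21 retinoic acid genes, 3 of 23 motor neuron identity factors, 3 of 18 transmitter genes and 3 of 36 voltage-gated channel genes, against 1.28% of all genes. Among members expressed at both stages, 2 of 12 synapse organisers, 8 of 32 axon guidance genes, 6 of 22 Hox genes and 0 of 6 transmitter genes were lowered. For members expressed only at D6 the D4H8 effect rests on low levels. It also lowered 3 of 16 fibroblast markers (18.8%, median D6 effect -0.20), 1 of 9 glial and 1 of 9 floor plate markers, and the part of other cells in these counts was not tested. It lowered 1 of 19 ventral progenitor factors, 1 of 17 proneural factors and none of the Notch, glycolytic, cholesterol and p53 lists. At D4H8 the synapse organisers had 4 lowered (9.09%) and 2 raised (4.55%), and the Hox genes 2 lowered (7.41%) and 1 raised (3.70%). Of all genes 5.62% were lowered and 5.82% raised there, so these counts lie near the background. The median effects of the 2 lists were -0.29 and -0.20 at D4H8 and -0.25 and -0.17 at D6. No difference was called in either list. Without D4H8 replicate 1 the median of the synapse organisers at D4H8 was -0.09 with 1 lowered and 0 raised, and without D4H8_GSKJ4 replicate 2 the median of the Hox genes was 0.00, so the D4H8 side of these 2 lists rests on single libraries. Of the axon guidance genes 6 were lowered and 2 raised at D4H8, which became 3 and 1 without D4H8 replicate 1 and 5 and 5 without D4H8_GSKJ4 replicate 2. *Cux2*, a homeodomain gene of the neuronal list, had effects of -0.03 at D4H8 and -0.35 in the paired fit (edgeR adjusted p = 0.0016), with a difference of -0.33 (-1.08 to 0.43). *Mnx1*, a homeodomain gene of motor neurons, had -0.51 and -0.19, and neither was called.

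Genes bound by Kdm6b in the study's own binding data, of 1 assay a stage, were compared by when they were bound. Of 1187 tested targets at D4H8 only, 9.01% were lowered and 4.80% raised at D4H8, and of 4725 targets at both stages 8.28% and 5.52%. Of 2924 targets at D6 only, 5.03% were lowered and 9.30% raised at D4H8, and of 8734 genes on neither list 3.90% and 4.96%. Leaving out D4H8 replicate 1 brought these shares down, to 2.78% lowered and 0.505% raised of the targets at D4H8 only and 1.03% lowered and 1.27% raised of the targets at D6 only. Leaving out D4H8_GSKJ4 replicate 2 gave 7.33% and 4.63% for the first set and 4.45% and 7.90% for the second. With all 12 libraries, called differences were positive for 11 and negative for 0 of the 1187 targets at D4H8 only and 28 and 3 of the 4725 targets at both stages. They were positive for 4 and negative for 5 of the 2924 targets at D6 only and 16 and 6 of the 8734 other genes. Over all genes the shares were 0.335% and 0.0796%. In the paired D6 fit, which lowered 1.28% and raised 0.294% of all genes, 83 of the targets at D6 only were lowered (2.91%) and 15 raised (0.525%), and 6 (0.52%) and 3 (0.26%) of the targets at D4H8 only. Of the targets at both stages 75 were lowered (1.604%) and 16 raised (0.342%), and of the genes on neither list 45 (0.592%) and 14 (0.184%). The sets also differed in expression. Among genes expressed at both stages, the paired fit lowered 30 of 2137 targets at D6 only and 5 of 968 targets at D4H8 only. It lowered 55 of 4206 such targets at both stages and 22 of 4589 such genes on neither list. Median effects at D6 lay between -0.01 and 0.00 in all 4 sets.

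No change was called in the genes of the target enzymes. *Kdm6b* had 166 ± 7.46 CPM in untreated and 194 ± 55.5 CPM in treated D4H8, and 294 ± 54.2 and 274 ± 40.6 CPM at D6 (mean ± SD, n = 3). Its effects were 0.22 and -0.10, and its difference of -0.33 (95% interval -0.94 to 0.29) was not called. *Kdm6a* had effects of 0.02 and 0.04 (difference interval -0.51 to 0.56). GSKJ4 blocks the enzymes and not their transcripts, so these values do not check the treatment. *Ezh2*, the methyltransferase of PRC2, was lowered at D4H8 (-0.63, edgeR adjusted p = 0.0177) and had an effect of -0.03 at D6, and its difference of 0.60 was not called. *Trim66*, a bromodomain protein gene, was raised at D4H8 (2.78) from 0.569 to 3.82 CPM and had 2.18 and 4.39 CPM at D6, with an uncalled difference of -1.77 (-3.37 to -0.17).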

How the data were processed

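mRNA from whole cultures was captured with poly-T beads. By their methods the authors trimmed reads with Fastp, used Hisat2 to align them to mm10 and obtained one count per gene from HTSeq-count. The deposited counts are raw and unscaled. The strand used in counting was not given in the sources used here, so reads of antisense partners cannot be told apart and such genes are marked. The deposited FPKM values were made by the authors from these counts and gene lengths, and FPKM recomputed here differed by at most 0.005.

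Counts of 55400 genes were filtered with filterByExpr (minimum count 10), which left 17594, scaled by TMM and fitted in R 4.3.3 with edgeR 4.0.16 (quasi-likelihood) in 1 model of 12 libraries, 1 coefficient a group, with Benjamini-Hochberg adjustment over all tested genes. Effects are log2 with 95% intervals, the common biological coefficient of variation was 0.2505, and CPM are scaled by TMM. Same-numbered D6 libraries deviated together (correlations 0.691, 0.35 and 0.481), so D6 was also fitted on its 6 libraries with the replicate number as a block (the paired fit), a fit added after seeing the data. At D4H8 the correlations were 0.452, 0.0797 and 0.27, so no pairing was taken. The pairing comes from the replicate numbers in the labels.

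The members and lists were chosen with earlier results of these data known. Named genes were those with the largest called differences (mean of at least 100 counts, no predicted genes), those with an unadjusted p under 0.05 at D6 in the same or opposite direction, the members of each list with the smallest p for the difference, and genes the study names. A gene that this rule would name is not reported here. Gene identifiers were matched to symbols for 55140 genes. Shared 50-base words were counted across annotated transcripts. Promoters are from RefSeq on GRCm38.p6, and Kdm6b targets are the study's own lists of symbols. In simulated data with 17104 genes in the fit, the test of the difference recovered 8% of 2-fold and 64% of 4-fold changes with 6 false calls. Alternatives were DESeq2 1.42.0, limma 3.58.1 voom with quality weights, other scalings and filters, all 21 libraries, replicate blocks and each library left out. Versions also include Python 3.11.15 and matplotlib 3.10.9.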

Additional observations from a re-analysis of the deposited data

Results flagged for a closer look

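The effect of GSKJ4 differed between D4H8 and D6 for 73 genes, each singled out because edgeR's test of the difference itself passed an adjusted p of 0.05. Values below are the log2 effect at D6 minus that at D4H8, so a positive value is a fall at D4H8 that was smaller at D6. Of the ventral progenitor, proneural and Notch genes these were *Olig1* (4.36), *Olig2* (4.24), *Nkx2-9* (3.14), *Sp8* (2.89), *Neurog2* (4.41), *Dll1* (3.23), *Mfng* (3.08) and *Hey2* (3.09). Of the neuronal, transmitter and signalling genes they were *Pou3f2* (2.92), *Pou3f3* (3.00), *Prdm8* (3.48), *Isl1* (2.44), *Th* (2.46), *Ddc* (2.53), *Tubb2b* (1.37) and *Sfrp1* (2.10). Others with a positive value were *Miat* (3.44), *Grrp1* (3.21), *Efcc1* (4.00), *Sox2ot* (3.18), *Tbc1d30* (3.05), *Pcdh18* (2.22), *Ankrd37* (2.66) and *Slc39a14* (1.64).

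Negative values, a rise at D4H8 that was smaller or turned at D6, were found for *Slc30a1* (-1.80), *Jazf1* (-1.78), *Pag1* (-1.68), *Retreg1* (-1.39), *Nacc2* (-1.27), *Mapk4* (-1.27), *Akap12* (-1.26), *Lrrc8d* (-1.12), *Lamp1* (-1.01) and *Ccdc3* (-2.06). *Slc30a1* alone among these kept its call in each of the 12 refits that left out 1 library.

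The D5 libraries were outside the comparison. In a fit of all 21 libraries the 59 genes with a positive difference had a median GSKJ4 effect of -0.29 at D5, between -2.42 at D4H8 and 0.06 at D6, and 83.1% of them had the same sign at D5 as at D4H8, against 62.9% of all 18349 genes in that fit. The fit shares its D4H8 libraries with the choice of these genes, and no test was made of the order.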

How the results depend on the processing

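The direction of the named differences held in most refits, while the number of called genes moved. Genes with a positive difference, 59 in the report, numbered 337 with DESeq2, 416 with no filter on low counts, 132 with all 21 libraries in the fit and 409 with limma voom and quality weights. Genes with a negative difference, 14 in the report, numbered 331, 302, 66 and 469 under these settings in the same order, 24 with at least 10 counts in every library, and 9 without D4H8 replicate 1 and D4H8_GSKJ4 replicate 2. All 73 were among the calls of DESeq2 and of the unfiltered fit. Genes raised at D4H8, 1024 in the report, numbered 1617 with DESeq2, 256 without those 2 libraries and 343 in a fit of the 6 D4H8 libraries alone. Genes lowered there, 988 in the report, numbered 284 and 301 in the last 2 settings. At D6 the count of 0 became 2 with no filter and 1 with limma voom. Of the 73 genes, 31 were expressed at both stages at a limit of 5 FPKM. Genes called at D4H8 and held at D6 within 2-fold were 81.06%, and of the 1045 that also had a steady level and expression at both stages, 71.2% were held within 1.5-fold. Of these 1045, 54.16% had the same sign at D6, and at an unadjusted p under 0.05 at D6 there was 1 gene with the same and 1 with the opposite sign. The cause of these shifts was not tested.

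With the replicate number as a block within each stage, 629 genes had a positive and 629 a negative difference, and 2381 were raised and 2217 lowered at D4H8. With the replicate block at D6 only, 46 genes had a negative difference, and edgeR called 0 genes at D6 in this fit and 0 with the block within each stage (192 and 354 at an unadjusted p under 0.05), while on the 6 D6 libraries alone this block called 257 genes. The paired fit of D6 alone and the fits without 2 libraries were added after seeing the data.

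Leaving out 1 library at a time gave 24 to 234 positive and 1 to 81 negative differences, 125 to 1231 genes raised and 212 to 1083 lowered at D4H8, and 0 called at D6 each time. The lowest counts at D4H8 came without D4H8 replicate 1, the lowest count of positive differences (24) came without D6 replicate 2 or 3, and a count of 1 negative difference came without D4H8 replicate 1 or 2, without D6_GSKJ4 replicate 2 or 3 and without any one of the D6 libraries. Among genes whose difference was not called, the sign turned for *Slc7a3* (0.107 without D6 replicate 2, range from -0.442), *Slc7a5* (0.02 without D4H8_GSKJ4 replicate 1, range from -0.339), *Kdm6a* (-0.077 to 0.251) and *Mnx1* (-0.047 with limma voom, and -0.006 without D4H8_GSKJ4 replicate 2, range up to 0.7). Depth limits what can be said of genes near the count filter, whose intervals at D6 were too wide to place them.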

Other observations

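The 6 libraries of D5 and D5_GSKJ4, collected between the stages compared here, gave values that belong in no comparison above, from 1 fit of all 21 libraries with edgeR. *Pou3f2* had a log2 GSKJ4 effect of 0.03 at D5, close to that at D6, and its effect at D5 differed from that at D4H8 by 2.87. *Neurog2* and *Olig2* had -0.61 and -0.59 at D5 and *Dll1* -0.96. *Isl1* had 296, 349 and 351 CPM in untreated and 241, 172 and 196 CPM in treated D5 libraries, which did not overlap, a log2 effect of -0.71 that was not called (edgeR adjusted p = 0.565).

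The effects of *Cdh11* (-1.24) and of the glycolytic gene *Ldha* (-1.66) at D5 were nearer to those at D4H8 in the same fit (-1.42 and -2.54) than to those at D6 (-0.77 and -0.25). *Slc30a1*, the zinc exporter gene, had 23.5, 22.5 and 17.3 CPM in untreated and 36.7, 41.2 and 36.7 CPM in treated D5, a log2 effect of 0.85 between those of D4H8 and D6. *Slc7a3*, the amino acid transporter gene, had an effect of 2.05 at D5, above those at D4H8 (0.91) and D6 (0.69). None of these D5 effects was called in that fit. Of the other genes named above, the D5 effect was called for *Trim66* (5.46, edgeR adjusted p = 7.18e-05), *Isl2* (-1.97, 0.0169), *Slc7a5* (1.37, 0.0384) and *Trib3* (2.18, 0.0384), whose effects at D4H8 in the same fit were 2.78, -1.93, 0.64 and 1.84.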
